A study of Mus musculus with 6 samples.

Results

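The vesicular glutamate transporters VGLUT1, VGLUT2 and VGLUT3 are encoded by Slc17a7, Slc17a6 and Slc17a8. These 3 genes were chosen by name from the 24935 genes of the deposited table, of which 17778 had a mean normalized count of at least 10 and were tested, all 3 transporters among them. The choice was made with the difference between the air-exposed and hyperoxia-exposed mice already known for these same 6 libraries, so the group differences of the 3 genes and the Slc17a6 to Slc17a7 ratio are given as a description, with no test. C57BL/6 pups of both sexes, housed with their dams, breathed room air (air) or 85% oxygen (hyperoxia) from postnatal day 2 (P2) to P14. The left hippocampus was taken at P14, polyA RNA was sequenced, and each group has 3 libraries. The labels give no allele, drug or transgene for either group, and the sources used here do not give the sex or litter of the mouse behind each library. The deposited columns name the group and a library number, and every direction below follows those column names alone. The study's own tables print the opposite sign for some of the genes below, VGLUT1, Gabra3 and Sncg among them. Which of the sources has the groups the right way round was not settled here, and if the column names were exchanged, every signed difference, fold and ratio below would turn.

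Vesicular glutamate transporters are membrane proteins that load glutamate into synaptic vesicles, and a neuron that expresses any of them can release glutamate. VGLUT1 is the main form of cortical and hippocampal excitatory neurons and becomes more abundant as the forebrain matures after birth. VGLUT2 prevails in the thalamus, habenula and brainstem, is also made by Cajal-Retzius cells, and is more widely used by cortical and hippocampal neurons early in postnatal life. VGLUT3 is found in neurons that release another transmitter as well, among them cholecystokinin (CCK) interneurons of the hippocampus.

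The transporter genes lie at separate loci. On the mouse genome GRCm38, Slc17a7 (ENSMUSG00000070570.5) spans chr7:45163949-45176142 on the plus strand and Slc17a6 (ENSMUSG00000030500.6) spans chr7:51622006-51671119, also on the plus strand. Slc17a8 (ENSMUSG00000019935.16) spans chr10:89574020-89621253 on the minus strand. In GENCODE M21 none of the 3 shares exon bases with another gene, so their reads could not be split with an overlapping gene of that annotation.

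The 250 bases before the outermost RefSeq start of each gene (GRCm38.p6) are shown because the 3 genes differed in direction between the groups, and they let the sequence next to each start be compared. They were read 5′ to 3′ on the strand of the gene, and capitals mark E-boxes (CANNTG) and GC boxes (GGGCGG on either strand). The windows are chr7:45163671-45163920 (plus), chr7:51621580-51621829 (plus) and chr10:89621250-89621499 (minus), in the order printed.
Slc17a7: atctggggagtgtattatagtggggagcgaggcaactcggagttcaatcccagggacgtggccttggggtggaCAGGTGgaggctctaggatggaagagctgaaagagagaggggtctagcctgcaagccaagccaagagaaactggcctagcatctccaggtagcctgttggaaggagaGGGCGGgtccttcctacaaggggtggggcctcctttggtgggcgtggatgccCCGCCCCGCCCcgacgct
Slc17a6: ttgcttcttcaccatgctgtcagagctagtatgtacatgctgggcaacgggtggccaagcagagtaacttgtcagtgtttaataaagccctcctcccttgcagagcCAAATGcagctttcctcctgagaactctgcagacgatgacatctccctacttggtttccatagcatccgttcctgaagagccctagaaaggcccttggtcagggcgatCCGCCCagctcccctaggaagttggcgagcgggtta
Slc17a8: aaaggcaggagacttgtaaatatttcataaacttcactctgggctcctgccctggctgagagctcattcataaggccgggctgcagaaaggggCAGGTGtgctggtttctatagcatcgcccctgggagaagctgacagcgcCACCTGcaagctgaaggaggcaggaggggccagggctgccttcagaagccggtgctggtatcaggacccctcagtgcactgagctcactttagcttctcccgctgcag
The Slc17a7 window held 3 GC boxes, of which a pair overlap, and 1 E-box. The Slc17a6 window held 1 GC box and 1 E-box, and the Slc17a8 window held 2 E-boxes and no GC box. Among 32817 RefSeq start windows of the same length, 66.2% held an E-box and 32.7% held a GC box. Slc17a7 had 9 CpG dinucleotides and 61.2% G or C, Slc17a6 had 7 and 53.2%, and Slc17a8 had 5 and 57.2%, against medians of 6 and 52.4% over all windows. A match is a description of letters, not a site shown to be used.

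The libraries held between 30384052 and 38746972 reads on genes, the fewest in hyperoxia library 2. The values are normalized counts, which are read counts divided by 1 size factor per library. Differences are on the log2 scale of the normalized count plus 1, hyperoxia minus air, and their standard errors come from limma fitted over all 17778 genes. A gene is called when its limma p adjusted by the Benjamini-Hochberg method over those genes is under 0.05. Across all genes tested, 14.9% were called higher and 15.6% lower in hyperoxia, and the groups did not overlap for 22.3% in the higher and 23.8% in the lower direction. The median log2 difference of all genes was −0.01, with quartiles of −0.25 and 0.26. Leaving out hyperoxia library 2 raised the called genes from 2643 to 3840 higher and from 2782 to 3931 lower.

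The transporters went in different directions, by the group names of the columns. Slc17a6 was 3.32-fold higher in hyperoxia than in air, Slc17a7 was 1.26-fold lower, and Slc17a8 overlapped between the groups. By the calls of the limma fit, 1 of the 3 genes was called higher (background 14.9%), 1 was called lower (background 15.6%) and 1 was not called, and nothing is read from these counts because the genes were chosen with this contrast known. Of 16 alternatives, Slc17a6 was called under all 16 and Slc17a7 under 13. Slc17a8 was called under 1, which left out hyperoxia library 3.

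Slc17a6, the VGLUT2 gene, had normalized counts of 630.03, 555 and 593 in air libraries 1, 2 and 3 and of 2037, 2186 and 1675 in hyperoxia libraries 1, 2 and 3. Every hyperoxia library was above every air library, and hyperoxia library 3 was the lowest of its group. The air libraries averaged 593 ± 37.7 (SD, n = 3), and the hyperoxia libraries averaged 1966 ± 263 (SD, n = 3). The log2 difference was 1.72 with a standard error of 0.11, which placed Slc17a6 94th of 17778 genes from the largest increase. Leaving out single libraries gave 1.64 to 1.83. The reads behind these values numbered 545 to 669 in air and 1735 to 2304 in hyperoxia. Counting error alone would give a coefficient of variation of 2.08% to 4.28%, and the observed spread between libraries was 6.37% in air and 13.4% in hyperoxia.

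Slc17a7, the VGLUT1 gene, had normalized counts of 57503, 56902 and 54890 in air and of 44199, 43219 and 46731 in hyperoxia. The groups did not overlap, and the lowest air library stood above the highest hyperoxia library, which was library 3. The log2 difference was −0.34 with a standard error of 0.08, and leaving out single libraries gave −0.37 to −0.31. The gap between the groups was small beside that of Slc17a6, but the libraries of a group were close together, with a coefficient of variation of 2.43% in air and 4.05% in hyperoxia. Under quantile normalization, which forces all libraries to the same distribution of values, the difference was −0.11.

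Slc17a8, the VGLUT3 gene, had normalized counts of 224, 221 and 253 in air and of 164, 140 and 242 in hyperoxia. Hyperoxia libraries 1 and 2 were below every air library, and hyperoxia library 3 was inside the range of the air libraries. The air libraries averaged 233 ± 17.4 (SD, n = 3), against 182 ± 53.4 (SD, n = 3) for those of hyperoxia. The log2 difference of −0.39 had a standard error of 0.19, and the coefficient of variation of the hyperoxia libraries was 29.3%. Without hyperoxia library 3 the difference was −0.61, and without hyperoxia library 2 it was −0.22. From 124 to 251 reads stood behind each value, for which counting error alone would give a coefficient of variation between 6.31% and 8.98%.

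**Figure D1:**
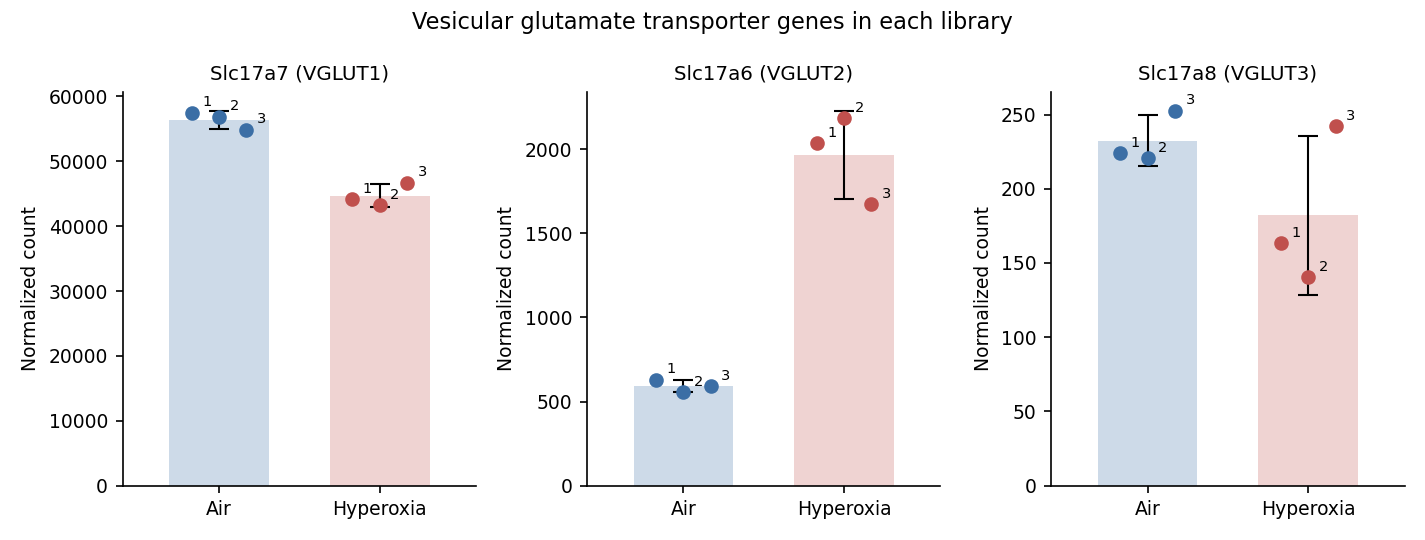
Normalized count of Slc17a7, Slc17a6 and Slc17a8 in each of the 6 libraries, with the library number beside each point, bars for the mean and error bars for the SD of 3 libraries. The 3 hyperoxia libraries lie above all air libraries for Slc17a6 (1675 to 2186 against 555 to 630.03), below them for Slc17a7 (43219 to 46731 against 54890 to 57503), and overlap them for Slc17a8.

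Within the hyperoxia group the 3 genes did not all rank the libraries in the same order. Slc17a6 was highest in library 2 and lowest in library 3, whereas Slc17a7 and Slc17a8 were both lowest in library 2 and highest in library 3. Within air, the order of the libraries differed for each of the 3 genes. In whole tissue, fewer cells that express a gene and less RNA of that gene per cell cannot be told apart.

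To compare levels between the transporters, normalized counts were divided by the length of the longest protein-coding transcript, 2915 bases for Slc17a7, 4137 for Slc17a6 and 4456 for Slc17a8. The order Slc17a7, Slc17a6, Slc17a8 held in every library, and no value of a gene overlapped a value of its neighbour in that order. Per kilobase, Slc17a7 averaged 19359 ± 469.6 (SD, n = 3) in air, and its hyperoxia mean was 15340 ± 622 (SD, n = 3). For Slc17a6 the air mean of 143 ± 9.12 (SD, n = 3) compared with a hyperoxia mean of 475 ± 63.6 (SD, n = 3). Slc17a8 was lowest, with 52.2 ± 3.91 (SD, n = 3) in air against 40.9 ± 12.0 (SD, n = 3) in hyperoxia.

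Slc17a7 therefore made up nearly all transporter RNA in both groups. The summed level of the 3 genes per kilobase was 19929, 19704 and 19030 in the air libraries and 15692, 15386 and 16490.5 in the hyperoxia libraries. The sum was lower in every hyperoxia library, with a log2 difference of −0.30 (standard error 0.04). Between the group means, Slc17a6 gained 332 per kilobase while Slc17a7 fell by 4019 per kilobase. Slc17a7 held 99.0% ± 0.0616 (SD, n = 3) of that sum in air, against 96.7% ± 0.437 (SD, n = 3) in hyperoxia. The share of Slc17a6 was 0.764%, 0.680% and 0.754% in the air libraries and 3.14%, 3.43% and 2.45% in the hyperoxia libraries. Slc17a8 held 0.267% ± 0.0265 (SD, n = 3) in air, against 0.256% ± 0.0654 (SD, n = 3) in hyperoxia, with overlap.

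The ratio of Slc17a6 to Slc17a7 does not depend on the size factor of a library. For every 100 normalized counts of Slc17a7 there were 1.10, 0.975 and 1.08 of Slc17a6 in the air libraries and 4.61, 5.06 and 3.58 in the hyperoxia libraries. The lowest hyperoxia library was above the highest air library by a wide margin relative to the spread in air. The hyperoxia mean of 4.42 ± 0.756 (SD, n = 3) was 4.20-fold the air mean of 1.05 ± 0.0661 (SD, n = 3). On the log2 scale the ratio differed by 2.06 with a standard error of 0.16, and by 1.95 to 2.20 when single libraries were left out. Read the other way, Slc17a7 exceeded Slc17a6 in normalized counts by 95.5-fold ± 6.22 (SD, n = 3) in air, against 23.1-fold ± 4.25 (SD, n = 3) in hyperoxia. Scaled to transcript length, Slc17a6 reached 0.740 ± 0.0465 (SD, n = 3) for every 100 of Slc17a7 in air, against 3.11 ± 0.533 (SD, n = 3) in hyperoxia.

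Ratios with Slc17a8 were taken in the same way. Slc17a8 per 100 counts of Slc17a7 was 0.390, 0.388 and 0.460 in air and 0.370, 0.325 and 0.518 in hyperoxia. These values overlapped, with a log2 difference of −0.05 (standard error 0.22), and of all 6 libraries hyperoxia libraries 1 and 2 were the lowest and hyperoxia library 3 the highest. Slc17a8 per 100 counts of Slc17a6 went from 35.6, 39.8 and 42.6 in air to 8.03, 6.42 and 14.5 in hyperoxia, without overlap.

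Against Slc32a1, the vesicular transporter for GABA and glycine in inhibitory neurons, Slc17a6 and Slc17a7 also parted. There were 0.299, 0.299 and 0.314 counts of Slc17a6 for each count of Slc32a1 in air and 1.20, 1.11 and 1.01 in hyperoxia. Slc17a6 was thus below Slc32a1 in normalized counts in every air library and above it in every hyperoxia library. For Slc17a7 the ratio to Slc32a1 was 27.3, 30.7 and 29.1 in air and 26.1, 22.0 and 28.3 in hyperoxia, and the groups overlapped.

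**Figure D2:**
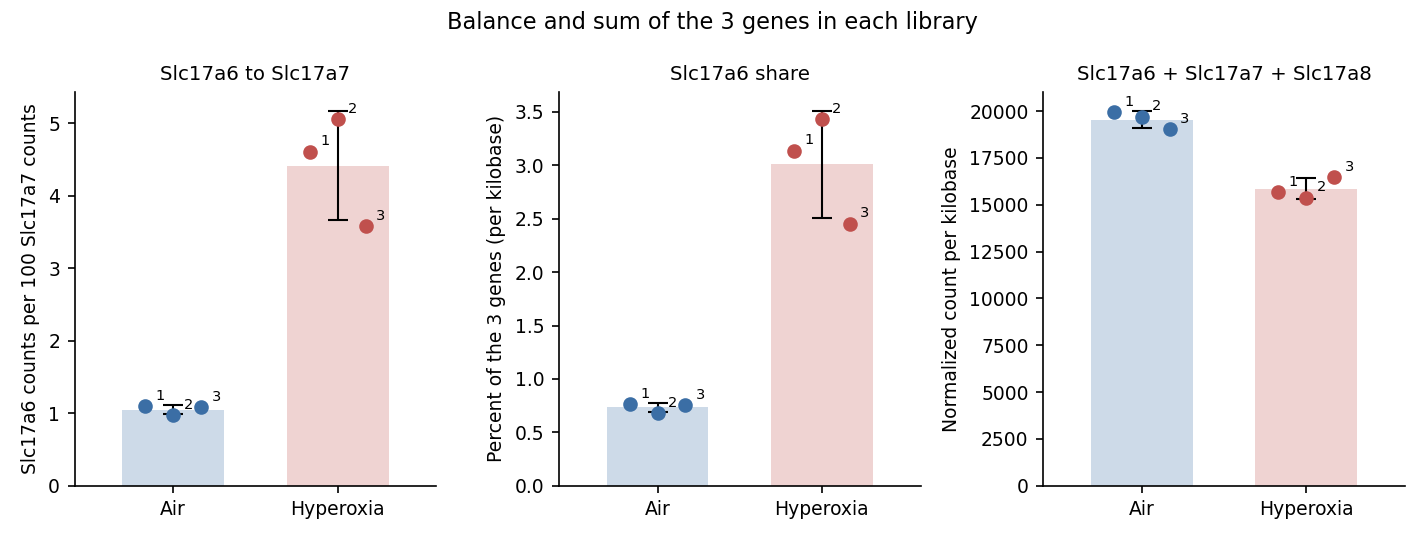
Slc17a6 counts per 100 Slc17a7 counts, the percent share of Slc17a6 in the length-scaled sum of the 3 transporters, and that sum as normalized count per kilobase, in each library (points, with the library number), with the group mean (bars) and SD (error bars, n = 3). The ratio is 0.975 to 1.10 in air and 3.58 to 5.06 in hyperoxia, and the sum is lower in all 3 hyperoxia libraries.

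Other genes that fill synaptic vesicles did not rise with Slc17a6 as a group. Of 12 further vesicular transporter genes, 9 were matched by symbol and 7 were tested. Of the 7, 1 was called higher and 1 lower, with a median log2 difference of 0.03 against −0.01 for all genes. Over all genes tested, 14.9% were called higher and 15.6% lower, which is the background for every list count below. Slc32a1 differed by −0.14 (limma adjusted p = 0.26), the monoamine transporter gene Slc18a2 by 0.30 (limma adjusted p = 0.093) and Slc30a3, the zinc transporter of vesicles in hippocampal excitatory neurons, by −0.22 (limma adjusted p = 0.12). The closest relatives of the VGLUTs among them, the sialic acid transporter gene Slc17a5 and the nucleotide transporter gene Slc17a9, differed by 0.03 (limma adjusted p = 0.82) and 0.42 (limma adjusted p = 0.52). The called genes were Slc18b1, a polyamine transporter gene, at −0.28 (limma adjusted p = 0.037) and Slc18a3, which loads acetylcholine, at 1.57 (limma adjusted p = 0.026), the latter from normalized counts of only 2.83 to 6.16 in air and 11.6 to 24.8 in hyperoxia. The call of Slc18b1 held under 11 of 16 alternatives and that of Slc18a3 under 12 of the 14 that tested it. Slc17a2 and Slc18a1 were too low to test, and Slc17a2 was at 0 in 1 air library.

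Genes that supply and clear glutamate were mixed, and none differed as much as Slc17a6. Of 19 tested, 4 were called higher (background 14.9%) and 2 lower (background 15.6%), with a median of 0.07. The 4 higher genes were Glud1, which interconverts glutamate and 2-oxoglutarate (0.71, limma adjusted p = 9.3e-04), the glutamine transporter gene Slc38a2 (0.63, limma adjusted p = 6.9e-04), the astrocytic glutamate transporter gene Slc1a2 (0.51, limma adjusted p = 0.0080) and the mitochondrial glutamate carrier gene Slc25a18 (0.49, limma adjusted p = 0.033). The call of Slc25a18 held under 11 of 16 alternatives and those of the other 3 under all 16. The 2 lower genes were Slc38a7 (−0.34, limma adjusted p = 0.0098) and Slc1a1 (−0.22, limma adjusted p = 0.029). They were called under 14 and 11 of 16 alternatives. Leaving out single libraries gave 3 to 9 called genes.

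Among 26 genes of synaptic vesicles and release, 8 were called lower and 1 higher, with a median of 0.02. This count of 9 called genes ranged from 2 to 16 when single libraries were left out and was 3 with limma without a trend. Syn1, which tethers vesicles, differed by −0.48 (limma adjusted p = 0.0043), the vesicle GTPase gene Rab3a by −0.44 (limma adjusted p = 0.021), the SNARE gene Snap25 by −0.40 (limma adjusted p = 0.011) and the vesicle protein gene Sv2c by 0.52 (limma adjusted p = 0.0088). Of these, Rab3a kept its call under 11 and Snap25 under 13 of 16 alternatives.

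Slc17a7 was also set beside 18 markers of hippocampal excitatory neurons, the cells of this tissue that depend most on VGLUT1. All 18 were detected in every library, and 9 were called lower and 1 higher (6 to 14 called in all when single libraries were left out), with a median of −0.35 beside the −0.34 of Slc17a7. Their summed level per kilobase was 18622 to 20236 in air and 13392 to 15764 in hyperoxia. Within the hyperoxia group it was lowest in library 2 and highest in library 3. The dentate gyrus gene C1ql2 differed by −1.24 (limma adjusted p = 3.5e-04), Iyd by −0.99 (limma adjusted p = 0.0059), the CA2 gene Rgs14 by −0.86 (limma adjusted p = 4.5e-04) and Lct by −0.85 (limma adjusted p = 0.011), each a larger fall than that of Slc17a7. The gene called higher was Mpped1 (0.35, limma adjusted p = 0.020), whose groups did not overlap. Wfs1 (−0.32), Fibcd1 (−0.30) and Pou3f1 (−0.23) overlapped between the groups and were not called, so the fall was not shared by the whole list. The part of these markers in the level of Slc17a7 was not tested.

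Slc17a6 was set beside markers of neighbouring tissue and of other neurons that can use VGLUT2, of which none was at 0 in any library. Neocortex layer markers had 7 genes called higher and 2 lower of 14, with a median of 0.47, and a summed level of 4309 to 4586 per kilobase in air and 4523 to 5331 in hyperoxia. Among the largest differences were those of Tshz2 (2.20, limma adjusted p = 2.6e-04), Foxp2 (1.93, limma adjusted p = 5.9e-04), Cplx3 (1.62, limma adjusted p = 0.0011) and Ctgf (1.31, limma adjusted p = 6.1e-04), all called under all 16 alternatives. The genes called lower were Scnn1a (−0.51, limma adjusted p = 0.0089) and Bcl11b (−0.48, limma adjusted p = 0.042, called under 9 of 16 alternatives). Of the tested genes in the 12 lists examined here, Tshz2 and Foxp2 alone rose more than Slc17a6. Tshz2 was 762, 533 and 461 in the hyperoxia libraries, highest in library 1, whereas Slc17a6 was highest in library 2.

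Subiculum markers had 6 genes called higher and 1 lower of 9 (4 to 8 in all when single libraries were left out), with a median of 0.49, all below the 1.72 of Slc17a6. Nts differed by 1.06 (limma adjusted p = 0.0014), Cntn6 by 0.96 (limma adjusted p = 8.1e-04) and Fn1 by 0.87 (limma adjusted p = 0.0019). The gene called lower was Bcl6, at −0.37 (limma adjusted p = 0.030). Their summed level was 2274 to 2668 per kilobase in air and 2669 to 3464 in hyperoxia, where it was lowest in library 2.

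Thalamus markers had 6 genes called higher and 1 lower of 17 tested, with a median of 0.31, and their summed level overlapped between the groups, at 11853 to 12516 per kilobase in air and 10472 to 14570 in hyperoxia. This sum was highest in hyperoxia library 2. Cplx1 had the highest normalized counts of the list in every library, at 16445, 20273.5 and 14771.5 in hyperoxia libraries 1, 2 and 3. It is also on the synaptic vesicle and later postnatal lists, so the sum is not particular to thalamus. Tcf7l2, which marks thalamic neurons, was 384, 372 and 528 in air and 514, 1085 and 659 in hyperoxia, and was called higher at 0.76 (limma adjusted p = 0.039) although the groups overlapped. Among called genes without overlap, the largest differences were those of Grid2ip (0.79, limma adjusted p = 0.046), Ntng1 (0.68, limma adjusted p = 0.038) and Amotl1 (0.62, limma adjusted p = 0.0029). The first and second were called under 10 of 16 alternatives and Amotl1 under all 16. The gene called lower was Ptpn3 (−0.32, limma adjusted p = 0.045, called under 9 of 16 alternatives). Lhx9 was lower (−0.51) and Slitrk6 higher (0.78) without overlap, but neither was called. Within the hyperoxia group, Calb2 (3720) and Synpo2 (548), which were not called, were also highest in library 2. Prkcd, Plekhg1 and Ptpn3 were highest in library 3 of that group. Leaving out single libraries gave 2 to 10 called thalamus genes.

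Of 9 medial habenula markers tested, 2 were called higher (background 14.9%) and 2 lower (background 15.6%), with a median of 0.19. From 1 to 4 were called in all when single libraries were left out. Their summed level of 780.2 to 873 per kilobase in air overlapped that of 789 to 866 in hyperoxia. Cajal-Retzius cell markers had 3 genes called higher and 1 lower of 9, with a median of −0.01, and a summed level of 707 to 769 in air and 947 to 982 in hyperoxia. Zic1 was higher at 0.86 (limma adjusted p = 0.0075) and Reln at 0.75 (limma adjusted p = 0.0017). Neither gene is restricted to Cajal-Retzius cells, so the sum is not particular to them. Ebf3 was lower at −0.64 (limma adjusted p = 0.013, called under 13 of 16 alternatives). Trp73 (−0.20), Lhx1 (−0.23) and Lhx5 (0.21) overlapped between the groups and were not called. The part of neocortex, subiculum, thalamus, habenula and Cajal-Retzius cells in the level of Slc17a6 was not tested.

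Slc17a8 was set beside 14 markers of CCK interneurons, of which 2 were called higher and 4 lower (2 to 10 in all when single libraries were left out), with a median of −0.10. Cck itself was lower at −0.35 (limma adjusted p = 0.021, called under 12 of 16 alternatives), close to the −0.39 of Slc17a8. Sncg was lower at −1.80 (limma adjusted p = 0.0048), and Cplx3, which is also on the neocortex list, was higher. The summed level of the list was 28241 to 30547 per kilobase in air and 22418 to 29030 in hyperoxia, and was lowest in hyperoxia library 3. The part of these cells in the level of Slc17a8 was not tested.

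Since VGLUT2 is used more widely by early and VGLUT1 by later postnatal neurons, a list of each stage was set beside Slc17a6 and Slc17a7. Early postnatal neuron genes had 7 called higher and 1 lower of 16, with a median of 0.31, and a summed level of 37079 to 41389 per kilobase in air and 45367 to 51735 in hyperoxia. This sum was highest in library 2 and lowest in library 3 of the hyperoxia group, but its genes differed in order. Tubb2b, which was not called, was 12974, 17840.5 and 15697 in hyperoxia libraries 1, 2 and 3. Dpysl3 was 10593, 9824 and 12697, and so lowest in library 2. The largest differences were those of the growth cone gene Dpysl3 (1.05, limma adjusted p = 3.3e-04), the GABA receptor gene Gabra3 (0.98, limma adjusted p = 0.0011) and, in the opposite direction, the granule neuron factor gene Neurod1 (−0.71, limma adjusted p = 9.8e-04). Later postnatal neuron genes had 1 called higher and 5 lower of 15 (3 to 9 in all when single libraries were left out), with a median of −0.16, and a summed level of 156288 to 167900 per kilobase in air and 112470 to 119563 in hyperoxia. Nrgn differed by −0.89 (limma adjusted p = 5.4e-04) and Ppp3ca by −0.66 (limma adjusted p = 0.0018), each a larger fall than that of Slc17a7. The part of these genes' stages in the levels of Slc17a6 and Slc17a7 was not tested.

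**Figure D3:**
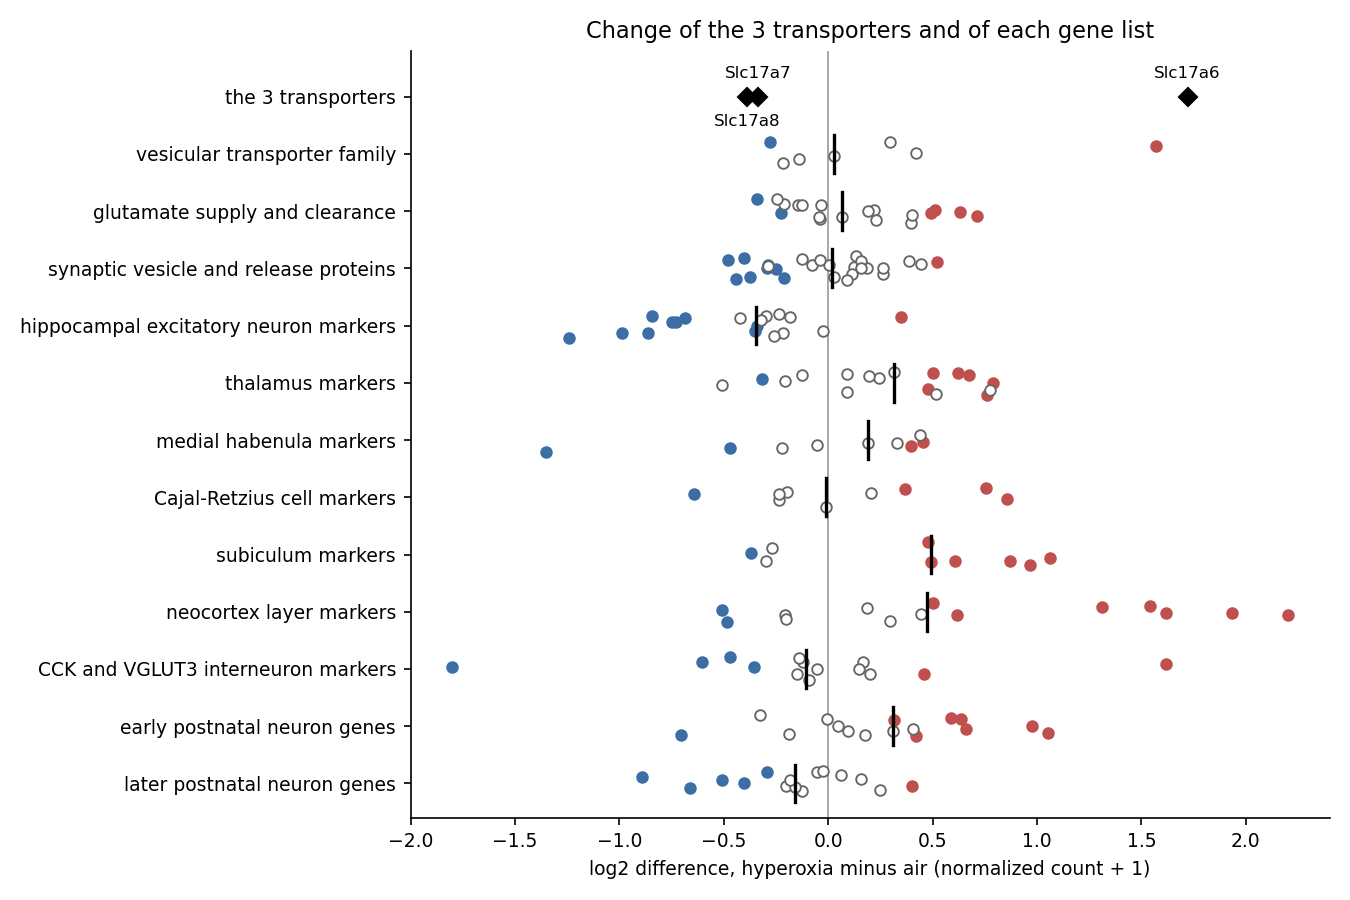
Log2 difference in normalized count plus 1, hyperoxia minus air, of the 3 transporters (diamonds) and of every tested gene of the 12 lists (circles, red called higher, blue called lower, open not called), with a black line at the median of each list. Slc17a6 at 1.72 lies to the right of every circle except Tshz2 (2.20) and Foxp2 (1.93), and Slc17a7 and Slc17a8 lie at −0.34 and −0.39.

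The profile of each transporter over the 6 libraries was compared with the profiles of 14096 genes whose mean reached 50, by the root-mean-square difference of log2 values after the mean of each gene was removed. The smaller this difference, the closer the profile, and since the group difference enters it, the genes found share the direction by construction. For Slc17a6 the closest were Lgr6, a receptor for R-spondins (0.13), Adcyap1, which encodes the neuropeptide PACAP (0.14), the protocadherin gene Pcdh11x (0.15), Ier3 (0.16) and Usp43 (0.17). Adcyap1 had normalized counts of 207, 172 and 193 in air and 631, 594 and 420 in hyperoxia, the last in library 3 as for Slc17a6. Lgr6 went from 119 to 128 in air to 365 to 462 in hyperoxia, with its highest value in library 2, again as for Slc17a6. From the lists, Ctgf, Cplx3, Foxp2 and Tshz2 of the neocortex list ranked 21st, 25th, 29th and 54th in closeness to Slc17a6. Scnn1a and Bcl11b of the same list, both called lower, ranked 12860th and 13192nd of 14096.

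The root-mean-square difference is not scaled to the size of a gene's change, so its values cannot be compared between the transporters. The closest genes to Slc17a7 were all within 0.0186 on the log2 scale. They were Rab18, a GTPase of lipid droplets and membranes (0.0138), the RNA-binding protein gene Hnrnpd (0.0140), the cilium gene Bbs7 (0.0145), Nmt1, an N-myristoyltransferase gene (0.0151), and the ubiquitin ligase adaptor gene Spop (0.0186). Hnrnpd went from 5289 to 5566 in air to 4199 to 4499 in hyperoxia. None of these genes is a synaptic vesicle gene of the list above.

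For Slc17a8 the closest were the lincRNA M5C1000I18Rik (0.06), Prox1 (0.06), the dynein gene Dnah9 (0.07), Bcl11b (0.08) and Kl, the klotho gene (0.08). Prox1, the transcription factor that marks dentate granule neurons, had normalized counts of 8194, 7919 and 8665 in air and 5298, 5181 and 8533 in hyperoxia. Like Slc17a8, it was below the air range in hyperoxia libraries 1 and 2 and inside it in library 3. Bcl11b, a transcription factor of deep cortical layers and of hippocampal neurons, was 8156, 7635 and 8287 in air and 5622, 4438 and 7544 in hyperoxia. Closeness over 6 libraries from 2 groups is a description, and nothing is drawn from it about shared function.

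**Figure D4:**
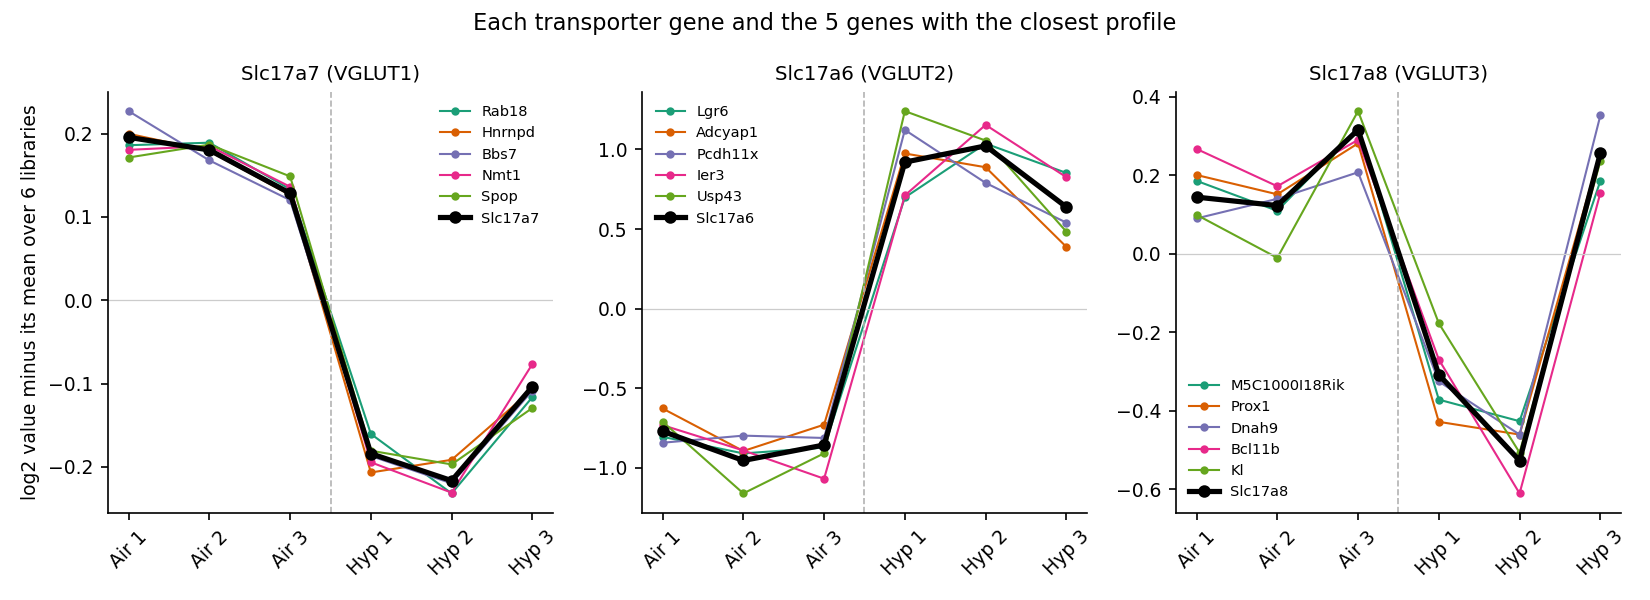
Log2 value minus its mean over the 6 libraries for each transporter (black) and its 5 closest genes (colours), with the 3 air libraries left and the 3 hyperoxia libraries (Hyp) right of the dashed line, and a separate vertical scale in each panel. The Slc17a7 group stays within 0.0186 root-mean-square of the transporter, the Slc17a6 group steps up between air and hyperoxia, and the Slc17a8 group returns to air levels in hyperoxia library 3.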

How the data were processed

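RNA from the left hippocampus was sequenced in 3 air and 3 hyperoxia mice. The submitters' processing notes name FastQC, STAR 2.5.3a, HTSeq and DESeq2, with no roles. No genome build or annotation is given in the sources used here. The deposited signal is a normalized count, scaled by the authors with 1 size factor for each library. In every library 100% of values lay within 0.01 of whole reads, so reads were recovered (30384052 to 38746972 per library). The other deposited table holds only fold changes and p-values of the authors' own comparison and was not used. The deposited columns name no animals, so columns are replicates of their group. The mice of a group were not stated to come from separate litters, so p-values measure the spread between these libraries.

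Genes whose mean reached 10 (17778) were fitted with limma 3.58.1 (R 4.3.3, trend) on log2 of the value plus 1, adjusted by the Benjamini-Hochberg method, and called under 0.05. Such differences understate changes of genes with low counts. An exact two-sided permutation test of 3 against 3 cannot go below 0.1. Alternatives were edgeR 4.0.16 (quasi-likelihood) and DESeq2 1.42.0 on recovered reads, which called 2779 and 2933 genes higher and 2722 and 2678 lower, other pseudocounts (0.5, 5), filters (none, 50), TMM, quantile normalization, limma without a trend, a length and GC correction (mgcv 1.9.3) and each library left out. Positions and lengths came from GENCODE M21 (GRCm38), which holds 99.7% of the deposited identifiers, and sequences from RefSeq. The members and the 12 lists, written from general knowledge, were chosen with earlier results of these data known. Named are the 3 transporters, every tested gene of the vesicular transporter list, up to 6 called genes without overlap per other list by size, and the 5 closest profiles of each transporter. Of these, the text gives the largest differences of most lists, and Cck. Tcf7l2, whose groups overlap, and Scnn1a, Bcl6, Cplx1 and Tubb2b were named after their values were seen. The same holds for Mpped1, Wfs1, Fibcd1, Pou3f1, Lhx9, Slitrk6, Calb2, Synpo2, Prkcd, Plekhg1, Trp73, Lhx1 and Lhx5. Another gene that this rule names is not reported here.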

Additional observations from a re-analysis of the deposited data

How the results depend on the processing

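The differences of Slc17a6 and of the Slc17a6 to Slc17a7 ratio kept their direction and size under every alternative run, from 1.61 to 1.83 for Slc17a6 (16 alternatives) and, with each library left out, from 1.64 to 1.83 and from 1.95 to 2.20. Slc17a7 lay between −0.37 and −0.31 with each library left out, and quantile normalization moved it to −0.11. Slc17a8 lay between −0.61 and −0.22 with each library left out, the lowest without hyperoxia library 3 and the highest without hyperoxia library 2. Over all genes, the numbers called with each library left out ranged from 1454 to 3840 higher and from 1602 to 3931 lower, the largest without hyperoxia library 2.

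The number of called genes per list moved more. Limma without a trend gave 1 gene for the vesicular transporters (2 in the reported fit), 3 for synaptic vesicles (9), 3 for thalamus (7), 1 for habenula (4) and 2 for CCK interneurons (6). The length and GC correction gave 10 for glutamate supply (6), 14 for synaptic vesicles, 4 for thalamus and 2 for habenula. A mean of at least 50 gave 1 for the vesicular transporters, and quantile normalization 3 for later postnatal genes (6). With each library left out, the counts ranged from 0 to 4 for vesicular transporters, 3 to 9 for glutamate supply, 2 to 16 for synaptic vesicles, 6 to 14 for hippocampal markers, 2 to 10 for thalamus, 1 to 4 for habenula, 4 to 8 for subiculum, 2 to 10 for CCK interneurons and 3 to 9 for later postnatal genes. Those for Cajal-Retzius cells (3 to 4), neocortex layers (8 to 11) and early postnatal genes (6 to 11) stayed within 1.5 times the reported count. The cause of these shifts was not tested. Among single genes, Slc17a5 changed sign under the length and GC correction (−0.00165) and without air library 1 (−0.00443), with a range of −0.00443 to 0.0589 over single libraries left out, and Slc17a9 without air library 2 (−0.0423), with a range of −0.0423 to 0.834, and neither was called. Of 1260 values of named genes under an alternative, 1124 kept their side of the threshold and direction, 124 lost their call and 9 gained it. No paired analysis was possible because the labels number all mice in a single run, so that no number is shared between the groups, and the columns do not name the mouse. With 3 libraries a group, single outlying libraries could not be tested for, and values below about 10 normalized counts, as for Slc18a3 in air, rest on few reads.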
